A study of Arabidopsis with 14 samples.

Results

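The mRNA-Seq comparison described here sets the libraries labelled AtC3H3 OX against WT (Col-0) after salt treatment, and follows pathways among well-expressed genes beyond the 21 genes that the study listed for it. It rests on 4 of the 14 libraries of the series: 2 replicates of 10-day-old whole seedlings labelled AtC3H3 OX and 2 of WT, both treated with 150 mM NaCl, with RNA of 1, 2 and 4 h combined. The AtC3H3 OX plants carry the AtC3H3 coding sequence with an HA tag under a modified CaMV 35S promoter, and all plants were grown with 8 h light and 16 h dark per day. Which transgenic line was sequenced is not given in the sources used here. Beside these 4 libraries, 2 untreated libraries labelled AtC3H3 OX and 4 untreated WT libraries in sets 1 and 2 were used for comparison. So were 2 libraries with NaCl labelled AtC3H26 OX, a line of another CCCH gene. The 2 untreated libraries labelled AtC3H26 OX entered a fit of all 14 libraries and are quoted for single genes. The labels do not say which WT set belongs with which line. Of 37980 genes listed, 19642 had an FPKM (fragments per kilobase of transcript, scaled to the mapped fragments of the library) of at least 1 in at least 2 of the 4 libraries, and 14067 of these had a mean of at least 5 FPKM. These 14067 are called well-expressed below.

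Salt stress lowers water uptake and brings sodium into the cell. Arabidopsis seedlings answer with abscisic acid signalling, protective proteins and compatible solutes such as proline and galactinol-derived sugars, while growth and photosynthesis slow. Aliphatic glucosinolates, defence compounds of Brassicaceae that are made from methionine, do not belong to this core response. Their synthesis lengthens the side chain of methionine in the plastid, builds the core structure through cytochrome P450 enzymes, a glutathione conjugate and a sulfotransferase, and ends with changes to the side chain.

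The transcript of AtC3H3 (AT1G04990, chromosome 1, listed as F13M7.1) went against the label. With NaCl it had 14.8 and 13.5 FPKM under the AtC3H3 OX label and 20.7 and 23.0 FPKM in WT, so that the log2 fold change was -0.59 (adjusted p = 0.025 from limma). Untreated, it had 4.204 and 4.86 FPKM under the AtC3H3 OX label, against 6.47 and 5.60 FPKM in set 1 and 5.72 and 5.38 FPKM in set 2 of WT. The libraries labelled AtC3H26 OX with NaCl, at 20.9 and 23.9 FPKM, lay close to WT. Every direction given below is therefore one of the libraries labelled AtC3H3 OX relative to WT, and not one of overexpression measured in these libraries. The paper selected its overexpressing lines by qRT-PCR and semi-qRT-PCR, and it also measured AtC3H3 by qRT-PCR in seedlings treated with NaCl. Whether the tables count transcripts of the transgene, and whether the labels are right, is not given in the sources used here.

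The values of the 4 libraries summed to between 714476 and 729899 FPKM, and 24236 to 24446 genes per library were above 0. The tables hold no counts per gene. The paper lists the mapped reads of each of these libraries, but its read numbers were not used here. From the steps of low FPKM values, the relative depth was estimated as 0.814 and 0.764 under the AtC3H3 OX label, with WT at 0.926 and 1.0. Between 20 and 40 FPKM, replicates differed with a log2 spread of 0.096 under the AtC3H3 OX label and 0.091 in WT. Markers of other tissues were read as sums over their tested members. The 13 endodermis and suberin markers summed to 162 to 163 FPKM under the AtC3H3 OX label and 161 to 164 FPKM in WT, and the 6 guard cell markers to 49.7 to 51.5 FPKM and 47.0 to 50.0 FPKM, so that both overlapped. The 7 root hair markers summed to 18.6 to 19.2 FPKM under the AtC3H3 OX label and 19.6 to 23.7 FPKM in WT, which did not overlap, and their part in the results was not tested. None of 9 seed storage genes reached the filter. In whole seedlings, fewer cells of a type and less RNA per cell cannot be told apart.

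With NaCl, 242 (1.72%) of the 14067 well-expressed genes were higher under the AtC3H3 OX label than in WT and 250 (1.78%) were lower, at an adjusted p under 0.05 (limma on log2(FPKM + 1), Benjamini-Hochberg). These percentages are the background against which the counts of each gene group are to be read. At an unadjusted p under 0.05 (limma), 1574 of the 14067 genes were higher and 1483 lower, the background for counts at that threshold. In 3818 genes (27.1%) both libraries labelled AtC3H3 OX lay above both WT libraries, and in 3522 (25%) both lay below, so that 2 groups of 2 that do not overlap are common here. The differences were small. Beyond the 21 listed genes, 238 higher and 244 lower genes had a median absolute log2 fold change of 0.37, and only 3 higher and 3 lower ones passed 2-fold. Without WT replicate 1, 13 higher and 7 lower genes were called, and without WT replicate 2 these were 22 and 11, with the spread then taken from the 2 libraries labelled AtC3H3 OX alone and the remaining WT library assumed to vary like them. Calls also fell without a library labelled AtC3H3 OX, where WT alone gave the spread. Without an intensity trend in the variance, 2 higher and 3 lower genes were called. All 492 called genes kept their sign in these fits, but this was fixed in advance. None of them overlapped between the groups, and the trend does not enter the fold change.

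Aliphatic glucosinolate synthesis held the most calls of the 38 gene lists. Of 29 listed genes, 27 passed the filter and 25 were well-expressed. Of these, 13 were higher and 1 was lower under the AtC3H3 OX label, against 1.72% and 1.78% of all well-expressed genes. The log2 fold change was positive in 24 of 25, with a median of 0.49 where that of all well-expressed genes was 0.00, and both libraries labelled AtC3H3 OX lay above both WT libraries in 22. The study's own list holds CYP79F1 and CYP83A1, so that these are not independent of it. The other 11 higher genes lie beyond it. Without WT replicate 1 or 2, 5 or 6 of the list were called higher, without a library labelled AtC3H3 OX 10 or 9, and the median stayed between 0.40 and 0.55.

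The steps of chain elongation were higher nearly throughout, with 7 of 9 genes called. BCAT4 (AT3G19710), which removes the amino group of methionine, had 59.5 and 64.7 FPKM under the AtC3H3 OX label and 33.1 and 30.8 FPKM in WT (log2 fold change 0.94, standard error 0.06, adjusted p = 0.0052 from limma). MAM1 (AT5G23010), the methylthioalkylmalate synthase that adds the new carbon, had 109 and 108 FPKM under the AtC3H3 OX label and 57.0 and 60.04 FPKM in WT (0.88, standard error 0.04, adjusted p = 0.0018). IPMI1 (AT3G58990), a small subunit of the isopropylmalate isomerase, had 37.0 and 38.2 FPKM under the AtC3H3 OX label and 19.98 and 20.25 FPKM in WT. In all 3 genes the libraries of a group lay close together and far from those of the other group. The second small subunit IPMI2 (AT2G43100) had 38.8 and 43.8 FPKM under the AtC3H3 OX label and 23.4 and 24.6 FPKM in WT, with a log2 fold change of 0.75. The dehydrogenase IMD1 (AT5G14200) followed with 0.55 and BAT5 (AT4G12030), which carries the oxo acids into the plastid, with 0.63. The large subunit IIL1 (AT4G13430), which also serves leucine synthesis, changed least among the called genes, with 155 and 154 FPKM under the AtC3H3 OX label, 130 and 128 FPKM in WT and a log2 fold change of 0.25. The 2 elongation genes without a call were BCAT3 (0.06), which also makes branched-chain amino acids, and MAM3 (0.11, listed as IMS2), the synthase of long chains.

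Among 10 genes of the core structure, 5 were called higher and none lower. CYP79F1 (AT1G16410), which converts elongated methionine to the aldoxime, had 31.2 and 31.3 FPKM under the AtC3H3 OX label and 14.7 and 14.1 FPKM in WT. CYP83A1 (AT4G13770), the next enzyme, had 60.3 and 60.9 FPKM against 29.4 and 28.5 FPKM. For both genes the level was about doubled and the replicates differed by little. GSTU20 (AT1G78370), a glutathione transferase expressed with this pathway, had 151 and 142 FPKM under the AtC3H3 OX label and 97.1 and 98.5 FPKM in WT (log2 fold change 0.58, adjusted p = 0.0064 from limma). The paralog CYP79F2 (AT1G16400) and the sulfotransferase SOT18 (AT1G74090) rose by 0.64 and 0.38 on the log2 scale. Enzymes that also serve indole glucosinolates moved less: SUR1, the C-S lyase, had 0.18 on the log2 scale (adjusted p = 0.17) and GGP1, the most abundant gene of this step, one of 0.07 (adjusted p = 0.45).

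Side chain and regulator genes were fewer. FMO GS-OX1 (AT1G65860), a flavin monooxygenase that oxidises the side chain, had 6.92 and 7.55 FPKM under the AtC3H3 OX label and 3.56 and 4.49 FPKM in WT (log2 fold change 0.72, adjusted p = 0.045 from limma). Its relative FMO GS-OX4 (AT1G62570) was the only lower gene of the list, with 397 and 394 FPKM under the AtC3H3 OX label and 446 and 456 FPKM in WT, with a log2 fold change of -0.19. These relatives thus differed in direction as well as in level. The activators MYB28 and MYB29 had log2 values of 0.29 (adjusted p = 0.25) and 0.32 (adjusted p = 0.093), and neither was called. MYB76 did not pass the filter.

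**Figure D1:**
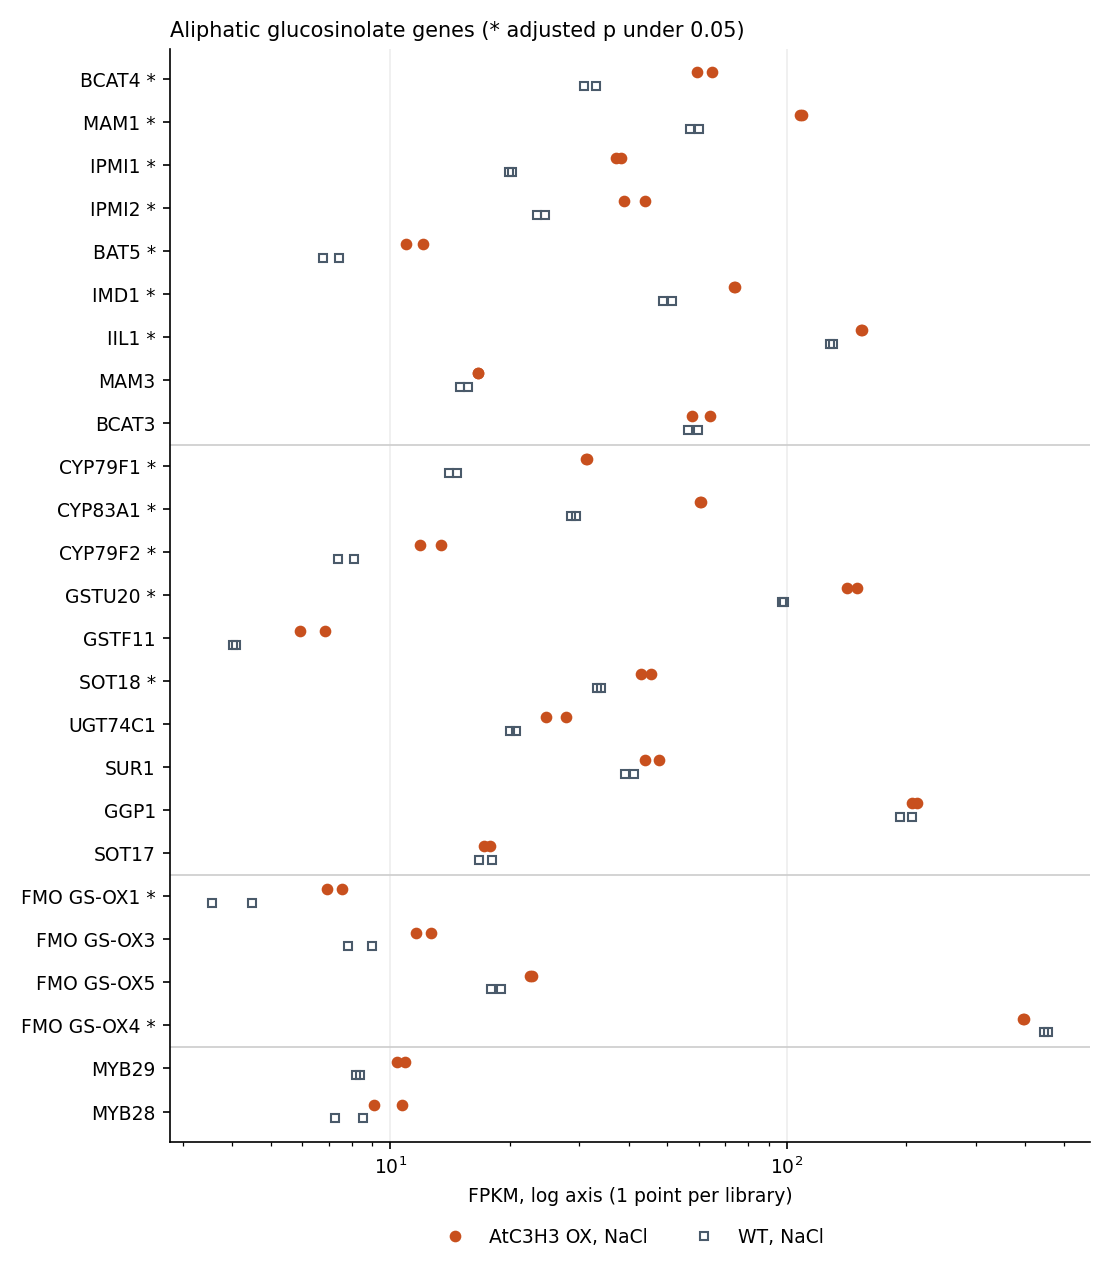
FPKM (log axis) of the 25 well-expressed aliphatic glucosinolate genes in the 2 libraries labelled AtC3H3 OX (filled circles) and the 2 WT libraries (open squares), all with NaCl; lines separate chain elongation, core structure, side chain and MYB factors, and a star marks an adjusted p under 0.05. In 22 genes both circles lie right of both squares, and in FMO GS-OX4 they lie left of them.

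The same genes were then read in the other groups. CYP79F1 had 33.2 and 34.2 FPKM under the AtC3H3 OX label without NaCl, 25.8 and 23.7 FPKM in set 1 and 11.5 and 13.1 FPKM in set 2 of WT. MAM1 had 95.4 and 97.03 FPKM, against 78.8 and 79.4 FPKM in set 1 and 46.6 and 45.5 FPKM in set 2 of WT. The untreated libraries labelled AtC3H3 OX lay above both sets, but the sets differed from each other as well. Against WT set 1 alone the median log2 fold change of the 25 genes was 0.18, with 22 positive, and against WT set 2 alone it was 0.59, with 23 positive. Between the WT sets, 12 of the 25 genes differed at an adjusted p under 0.05, where 12% of all well-expressed genes did, and set 2 was lower in 22, with a median log2 difference of -0.29. Against both sets together none of the 25 genes was called (limma; 13 had an unadjusted p under 0.05), where 0.0144% of well-expressed genes were called higher and 0.0359% lower. This fit, like the interaction, took the WT sets as 1 group, so that their difference entered its spread. Against set 1 alone and set 2 alone, CYP79F1 was called higher (adjusted p = 0.025 and 0.00035 from limma), as was MAM1 (0.021 and 0.00025). BCAT4 was called against set 2 alone (0.00084) and not against set 1 (0.11). The interaction of line and NaCl was called in none of the 25 genes (limma; 2 with an unadjusted p under 0.05), where 0.0422% had a called positive and 0.0352% a called negative interaction. These genes thus also varied between groups of WT plants, by up to 0.95 on the log2 scale for CYP79F1, and the part of this variation in the difference with NaCl was not tested.

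The libraries labelled AtC3H26 OX with NaCl share the WT libraries of this comparison, and their values are therefore set side by side only. MAM1 had 99.0 and 97.6 FPKM and CYP83A1 58.0 and 54.6 FPKM there, near the values labelled AtC3H3 OX. Directly between the lines, the median log2 difference of the 25 genes was -0.01 (AtC3H3 OX over AtC3H26 OX), and 2 of them were called, where 5.1% of well-expressed genes were called higher and 2.2% lower. FMO GS-OX4 was one of these, higher by 0.46 under the AtC3H3 OX label (adjusted p = 0.0087 from limma).

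**Figure D2:**
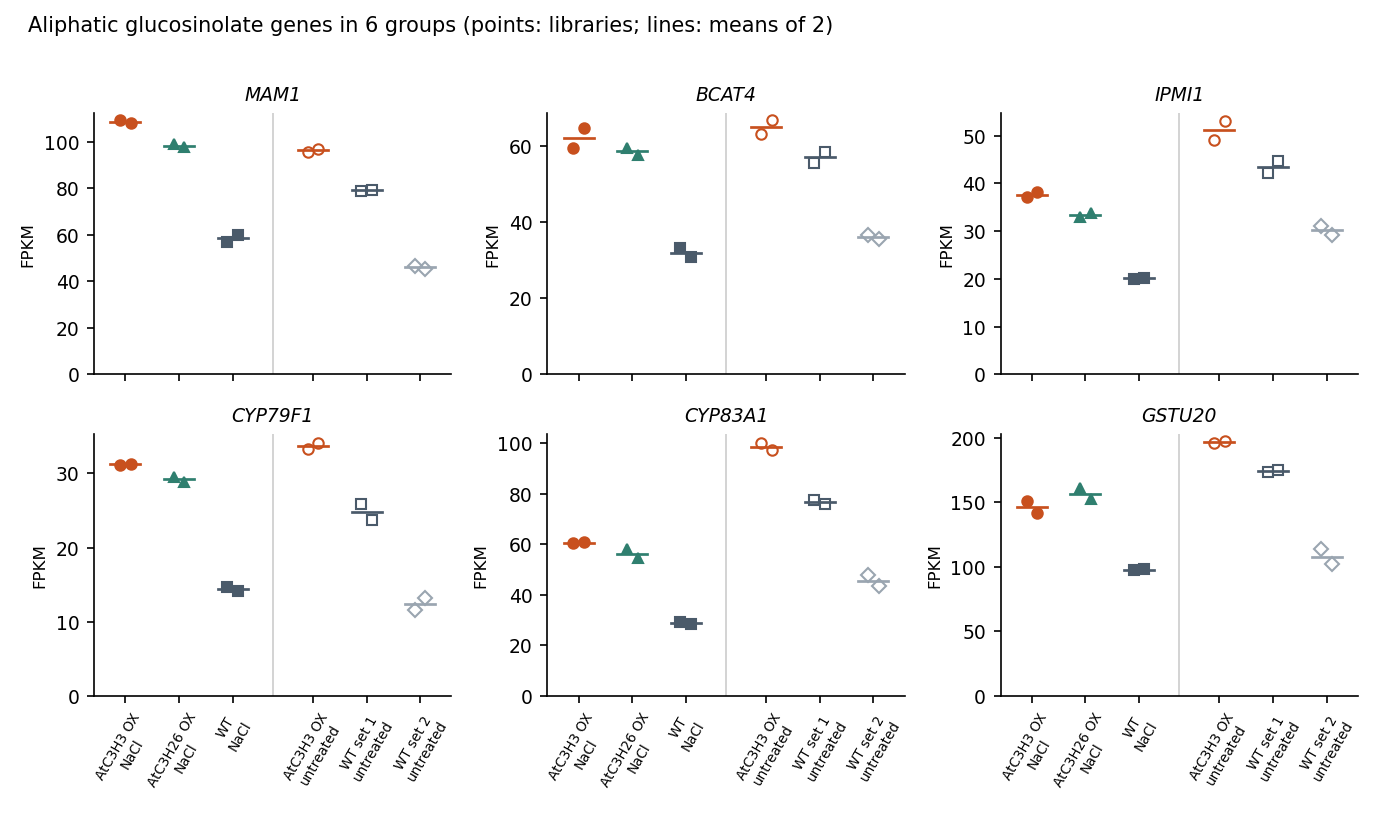
FPKM of 6 aliphatic glucosinolate genes in each library (points) with the mean of 2 (lines), with NaCl left and untreated right of the grey line. With NaCl both lines lie above WT in each panel, and among untreated groups WT set 2 lies below WT set 1, with the libraries labelled AtC3H3 OX above both.

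Neighbouring lists held few calls. Of 14 well-expressed genes of indole glucosinolate and camalexin synthesis, 1 was called higher, with a median log2 fold change of 0.00. It was the glutathione transferase GSTF9 (AT2G30860), with 502 and 526 FPKM under the AtC3H3 OX label and 455 and 447 FPKM in WT. Sulfur assimilation delivers the reduced sulfur and the activated sulfate that glucosinolates need. Of its 17 genes, 14 were positive with a median of 0.10, and 1 was called, the adenylylsulfate kinase APK2 (AT4G39940, listed as AKN2), with 67.4 and 64.0 FPKM against 53.4 and 53.5 FPKM in WT (log2 fold change 0.29, adjusted p = 0.033 from limma). The abundant ATP sulfurylase APS1 and sulfite reductase SIR had log2 fold changes of 0.00. Of 5 sulfur deficiency markers none was called by limma, but 3 were higher at an unadjusted p under 0.05, and their median log2 fold change was 0.36. The largest was that of GGCT2;1 (AT5G26220), a glutathione-degrading cyclotransferase, with 9.49 and 6.71 FPKM under the AtC3H3 OX label and 3.80 and 4.41 FPKM in WT (0.82, adjusted p = 0.065). In amino acid breakdown, 1 of 11 genes was called, LKR (AT4G33150, listed as F4I10.80), the first enzyme of lysine degradation, with 44.0 and 42.5 FPKM under the AtC3H3 OX label and 35.0 and 31.6 FPKM in WT. AK3 (AT3G02020), an aspartate kinase at the entry to lysine and methionine synthesis, was among the 12 largest increases, with 7.74 and 7.99 FPKM against 4.24 and 3.49 FPKM in WT (log2 fold change 0.87, adjusted p = 0.023 from limma).

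Dehydration genes diverged. Of 19 well-expressed genes of the abscisic acid and dehydration response, 1 was called higher and 2 lower, and the median log2 fold change was 0.00. Among them, 4 DREB and CBF factors had a median of 0.20 and none was called (limma; 1 higher at an unadjusted p under 0.05). By qRT-PCR at separate times of NaCl treatment, the paper found RD29B, RD22, RAB18, DREB2A and DREB2B higher in its AtC3H3 OX plants. The libraries here combine RNA of 3 times. RD29B (AT5G52300, listed as LTI65), a marker induced through abscisic acid, had 72.5 and 74.0 FPKM under the AtC3H3 OX label and 45.7 and 47.5 FPKM in WT (log2 fold change 0.64, standard error 0.04, adjusted p = 0.0052 from limma). Its neighbour RD29A (AT5G52310, listed as LTI78) had 2321 and 2322 FPKM against 2353 and 2412 FPKM, a log2 fold change of -0.04 (adjusted p = 0.49). The caleosin RD20 (AT2G33380) was lower, with 184 and 188 FPKM under the AtC3H3 OX label and 250.3 and 244 FPKM in WT. LEA7 (AT1G52690), a late embryogenesis abundant protein, had 75.4 and 81.6 FPKM against 108 and 107 FPKM, a log2 fold change of -0.45. The RD29 pair thus parted, and RD29B moved against RD20 and LEA7.

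RD29B also differed between the lines. With NaCl it had 38.8 and 33.6 FPKM under the AtC3H26 OX label, and the log2 difference of AtC3H3 OX over AtC3H26 OX was 1.00 (adjusted p = 0.0079 from limma). Untreated, it had 0.653 and 0.754 FPKM under the AtC3H3 OX label, against 1.34 and 1.92 FPKM in set 1 and 1.78 and 1.19 FPKM in set 2 of WT. The sign was thus opposite without NaCl at very low levels, and the interaction was not called (log2 1.22, adjusted p = 0.073 from limma).

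Galactinol synthases make the galactinol from which raffinose, a protective sugar, is built. All 4 had lower values in both libraries labelled AtC3H3 OX, and 3 were called. GOLS2 (AT1G56600, listed as GolS2), a gene induced by drought and salt, had 44.1 and 41.6 FPKM under the AtC3H3 OX label and 64.9 and 59.2 FPKM in WT (log2 fold change -0.52, adjusted p = 0.018 from limma). The cold-induced GOLS3 (AT1G09350, listed as GolS3) had 45.4 and 43.0 FPKM against 57.8 and 56.4 FPKM, and GOLS4 (AT1G60470, listed as GolS4) had 3.56 and 3.84 FPKM against 8.10 and 6.85 FPKM. The libraries labelled AtC3H26 OX lay below WT too, with 31.3 and 30.0 FPKM for GOLS2. The other 6 well-expressed genes of this list, 1 raffinose synthase and 5 trehalose phosphate phosphatases, held no call, and the median over all 10 was -0.09. DIN10 of the study's list, which the paper also names Raffinose Synthase 6, was counted with the dark and sugar starvation genes instead. It was called lower, with 16.2 and 14.9 FPKM under the AtC3H3 OX label and 104 and 103 FPKM in WT (log2 fold change -2.66, adjusted p = 9.1e-05 from limma). Without WT replicate 1 or 2 no galactinol synthase was called.

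In proline metabolism the 2 called genes moved apart. P5CS1 (AT2G39800), the enzyme that limits proline synthesis under stress, had 332 and 326 FPKM under the AtC3H3 OX label and 285 and 276 FPKM in WT (log2 fold change 0.23, adjusted p = 0.026 from limma). ERD5 (AT3G30775), the proline dehydrogenase that breaks proline down, had 44.4 and 45.3 FPKM against 54.8 and 56.5 FPKM (-0.30, adjusted p = 0.030). The other 7 genes were not called, and the median of the list was -0.02. P5CS1 was lower under the AtC3H26 OX label, at 199 and 205 FPKM, and differed between the lines by 0.70 (adjusted p = 0.0041). Untreated, ERD5 had 110 and 112 FPKM under the AtC3H3 OX label, 91.5 and 92.3 FPKM in set 1 and 15.0 and 14.1 FPKM in set 2 of WT, so that its level separated the WT sets by far more than it separated the groups with NaCl.

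Of 24 genes of abscisic acid synthesis and signalling, the phosphatase HAB1 (AT1G72770) alone was called, with 89.5 and 87.4 FPKM under the AtC3H3 OX label and 103 and 102 FPKM in WT. It was lower still under the AtC3H26 OX label, at 68.6 and 66.5 FPKM, and the log2 difference of AtC3H3 OX over AtC3H26 OX was 0.38 (adjusted p = 0.016 from limma). No sodium transport gene was called of 7, with 1 higher and 1 lower at an unadjusted p under 0.05 (limma). Of 14 genes of reactive oxygen scavenging and signalling none was called, likewise with 1 and 1. The vacuolar sodium antiporter NHX1 had 46.4 and 45.5 FPKM under the AtC3H3 OX label and 51.1 and 47.5 FPKM in WT, and was not called (adjusted p = 0.37).

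**Figure D3:**
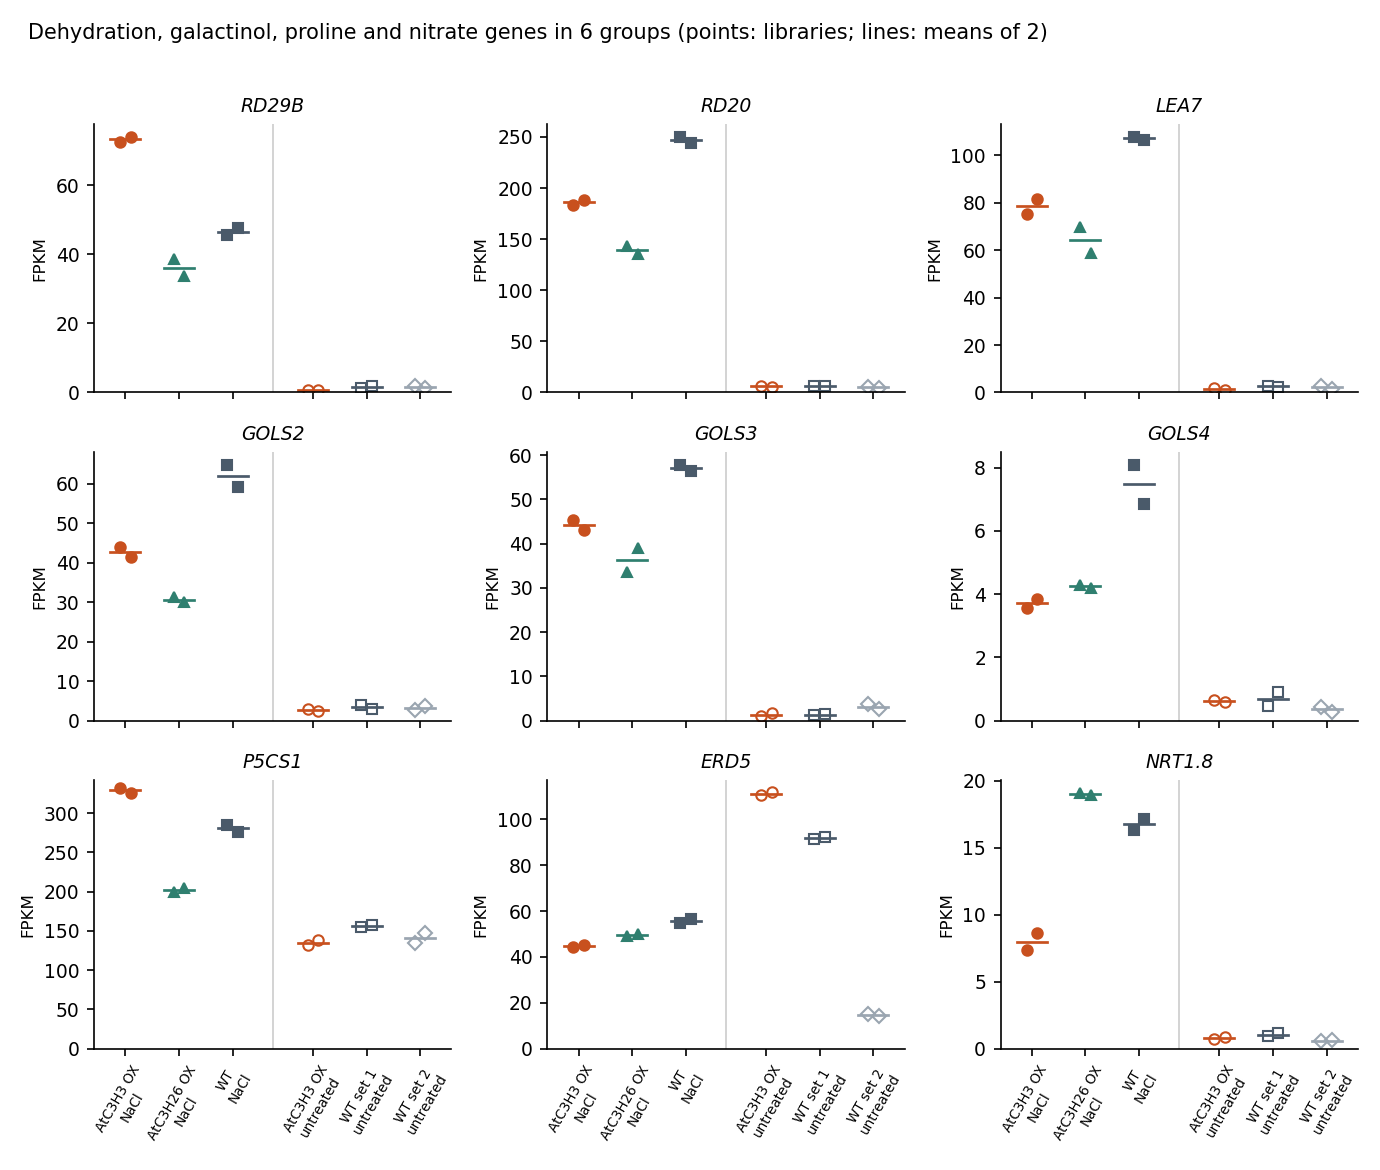
FPKM of 9 genes of dehydration, galactinol, proline and nitrate metabolism in each library (points) with the mean of 2 (lines), with NaCl left and untreated right of the grey line. With NaCl, RD29B and P5CS1 are highest under the AtC3H3 OX label, NRT1.8 is lowest there, and RD20, LEA7 and the GOLS genes are lower in both lines than in WT.

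Of 25 genes of nitrate assimilation and nitrogen transport, 1 was higher and 4 were lower, and none was called without WT replicate 1 or 2. NRT1.8 (AT4G21680), a transporter that takes nitrate back out of the xylem and is induced by stress, had 7.34 and 8.64 FPKM under the AtC3H3 OX label and 16.3 and 17.2 FPKM in WT (log2 fold change -0.98, standard error 0.09, adjusted p = 0.010 from limma). NRT1.5 (AT1G32450), which loads nitrate into the xylem, had 27.3 and 27.1 FPKM against 21.2 and 20.8 FPKM (0.36, adjusted p = 0.031). The transporters of loading and unloading thus moved in opposite directions. NRT1.8 also differed between the lines: under the AtC3H26 OX label it had 19.1 and 18.9 FPKM, and the log2 difference was -1.16 (adjusted p = 0.0088). Both nitrate reductases were slightly lower, NIA1 (AT1G77760) with 442 and 456 FPKM under the AtC3H3 OX label and 520 and 512 FPKM in WT, and NIA2 (AT1G37130) with 646 and 662 FPKM against 724 and 732 FPKM. GDH2 (AT5G07440), a glutamate dehydrogenase active when carbon is short, had 275 and 269 FPKM against 348 and 356 FPKM (-0.37, adjusted p = 0.0086). Set against the same WT libraries, NRT1.5, NIA1, NIA2 and GDH2 moved in the same direction under the AtC3H26 OX label. Their log2 fold changes there were 0.28, -0.34, -0.22 and -0.39, and none of them was called between the lines. The untreated WT sets differed in these genes too, by 0.25, -0.875, -1.10 and -0.44 (set 2 over set 1). Plastid glutamine synthetase GS2, at 590.2 and 585 FPKM against 583 and 577 FPKM, had a log2 fold change of 0.02 (adjusted p = 0.78).

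Phosphate and iron lists held 1 and 2 called genes. Among 9 genes of the phosphate starvation response, the secreted ribonuclease RNS1 (AT2G02990) was lower, with 71.6 and 72.8 FPKM under the AtC3H3 OX label and 109 and 106 FPKM in WT (log2 fold change -0.57, adjusted p = 0.0052 from limma). AT5G03545, known as AT4 or IPS2 and induced by phosphate starvation, was outside the list and among the 12 largest decreases, with 46.3 and 40.2 FPKM against 76.9 and 82.6 FPKM. It was as low under the AtC3H26 OX label (45.8 and 40.6 FPKM). In the iron list, the nicotianamine synthases NAS1 (AT5G04950) and NAS3 (AT1G09240), which make a metal chelator, were the 2 higher of 10 genes, with log2 fold changes of 0.47 and 0.48, and the ferritins FER1 and FER3 had -0.07 and -0.01.

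Hormone lists held few calls. In the jasmonate list of 30, the allene oxide cyclase AOC1 (AT3G25760) was higher, with 174 and 170.1 FPKM under the AtC3H3 OX label and 144 and 144 FPKM in WT, and the repressor JAZ1 (AT1G19180) was lower, with 162 and 160 FPKM against 188 and 185 FPKM. By role, 10 of 12 synthesis genes had a positive log2 fold change (median 0.09) and 10 of 12 JAZ repressors and MYC factors a negative one (median -0.09), while 1 of each was called. JRG21 (AT3G55970), a jasmonate-regulated oxygenase gene outside the list, was among the 12 largest decreases, with 27.8 and 30.3 FPKM under the AtC3H3 OX label and 54.3 and 55.0 FPKM in WT (log2 fold change -0.89, adjusted p = 0.0052 from limma). In the ethylene list, ACS6 (AT4G11280), a stress-induced synthase of the ethylene precursor, and the factor ERF-1 (AT4G17500) were the 2 lower of 9 genes, with -0.39 and -0.25. The list had the lowest median of all lists, -0.20. Both genes separated the untreated WT sets by more, with log2 differences of -2.39 for ACS6 and -1.53 for ERF-1 (set 2 over set 1). Under the AtC3H26 OX label with NaCl, ACS6 was also lower than in WT (-0.69, adjusted p = 0.0037 from limma), and ERF-1 was not called (-0.18). Of 8 salicylate and defence genes none was called (limma; 1 lower at an unadjusted p under 0.05).

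Growth-related lists held a few small changes, mostly higher. The auxin efflux carrier PIN7 (AT1G23080) had 25.3 and 26.6 FPKM under the AtC3H3 OX label and 18.1 and 19.2 FPKM in WT (log2 fold change 0.45, adjusted p = 0.025 from limma), and it was called with the auxin repressor IAA7 (0.22) as 2 of 15 auxin genes. Of 17 aquaporins 2 were called, the plasma membrane channel PIP1;5 (AT4G23400, 0.30) and the vacuolar DELTA-TIP (AT3G16240, 0.19). Among 24 genes of cell wall loosening the xyloglucan transferase XTH24 (AT4G30270, 0.22) was higher and the expansin EXPA10 (AT1G26770, -0.24) lower, with 17 positive and a median of 0.17. None of 8 cell division genes (1 lower at an unadjusted p under 0.05) and none of 8 gibberellin and brassinosteroid genes (2 higher and 2 lower) was called by limma. FLC (AT5G10140), the repressor of flowering, was higher, with 7.42 and 6.61 FPKM under the AtC3H3 OX label and 3.90 and 3.37 FPKM in WT (0.79, adjusted p = 0.031). Untreated FLC had 8.64 and 8.94 FPKM, against 4.95 and 5.28 FPKM in set 1 and 5.16 and 4.38 FPKM in set 2 of WT, and no library labelled AtC3H3 OX overlapped with WT in either treatment. The libraries labelled AtC3H26 OX had 5.405 and 3.974 FPKM with NaCl and 8.0 and 8.617 FPKM untreated, and lay above WT in both treatments as well. The related AGL31 and the floral repressor SVP had 0.08 and 0.16 and were not called.

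Photosynthesis genes of the nucleus had slightly higher values as a group. All 47 genes of the antenna, the photosystems and carbon fixation were well-expressed, 44 had a positive log2 fold change with a median of 0.12, and 8 were called higher and none lower. LHB1B2 (AT2G34420), a chlorophyll a/b binding protein of photosystem II, had 9016 and 9337 FPKM under the AtC3H3 OX label and 7960 and 7948 FPKM in WT (log2 fold change 0.21, adjusted p = 0.021 from limma), and the most abundant antenna gene CAB1 had 0.09 (adjusted p = 0.12). With median scaling the median was 0.11, 44 of 47 were positive and 3 were called, but with quantile normalization the median was 0.02, 30 were positive and none was called. None was called with all 14 libraries in one fit or without the filter either. Untreated, LHB1B2 had 7282 and 7260 FPKM under the AtC3H3 OX label, 7058 and 7566 FPKM in set 1 and 9764 and 8894 FPKM in set 2 of WT. Under the AtC3H26 OX label with NaCl it had 7636 and 7730 FPKM, below WT. In chlorophyll metabolism, the chlorophyllase CLH1 (AT1G19670) had 63.9 and 63.9 FPKM under the AtC3H3 OX label and 43.0 and 43.3 FPKM in WT (0.56, adjusted p = 0.0064), and the reductase PORB (AT4G27440) rose by 0.22.

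Genes encoded in the plastid were a group chosen after the values had been seen. Of 66 protein genes with a name of their own in the tables, 60 were well-expressed, 15 were called higher and none lower, and 46 were positive with a median of 0.25, which quantile normalization left at 0.24. The log2 fold changes ran from -1.57 to 1.29, and the sums over the tested genes overlapped, with 9608 and 8401 FPKM under the AtC3H3 OX label and 7751 and 8516 FPKM in WT. The gene of the large Rubisco subunit, rbcL, had 1248 and 1212 FPKM under the AtC3H3 OX label and 856 and 916 FPKM in WT (log2 fold change 0.47, adjusted p = 0.0086 from limma). The reaction centre gene psbA had 985 and 978 FPKM under the AtC3H3 OX label and 651 and 767 FPKM in WT. The short psbJ, with 215 and 298 FPKM against 95.4 and 112 FPKM, and psbN, with 166 and 161 FPKM against 59.3 and 92.5 FPKM, were among the 12 largest increases and varied most between replicates. As background, plastid transcripts mostly lack the stable poly(A) tail by which mRNAs are commonly selected. Without WT replicate 1 or 2, 3 or 4 of the plastid genes were called higher. Without AtC3H3 OX replicate 1 or 2, 8 or 14 were called higher and 3 or 2 lower, and median scaling gave 1 lower call. The untreated log2 fold change was positive in 14 of the 15 (median 0.56) and against AtC3H26 OX with NaCl negative in 12 (median -0.16), and 6 of the 15 were called between the WT sets, in which rbcL had 909 and 999 FPKM in set 2 and 1948 and 1845 FPKM in set 1.

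Families of conjugation and efflux held 21 of the lower genes, and these families, too, were taken whole after the values had been seen. Glutathione S-transferases and UDP-glycosyltransferases attach glutathione or sugar to such compounds, and ABCC and DTX proteins move them into the vacuole or out of the cell. Of 39 well-expressed UDP-glycosyltransferases, 10 were lower and 1 higher, with a median log2 fold change of -0.14. Of 30 glutathione S-transferases 7 were lower and 3 higher with a median of 0.02, of 9 ABCC transporters 3 were lower, and of 3 DTX carriers 1 was lower. No count of these families has a test of its own.

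The efflux carrier DTX1 (AT2G04040) had 26.2 and 23.9 FPKM under the AtC3H3 OX label and 44.6 and 45.0 FPKM in WT (log2 fold change -0.81, adjusted p = 0.0065 from limma). ABCC10 (AT3G59140) had 11.1 and 10.6 FPKM against 19.3 and 18.22 FPKM, and ABCC3 (AT3G13080) had 26.7 and 26.4 FPKM against 40.2 and 38.5 FPKM. In each of these transporters the groups lay well apart. GSTU26 (AT1G17190) had 27.0 and 26.9 FPKM under the AtC3H3 OX label and 43.7 and 43.4 FPKM in WT (-0.67, adjusted p = 0.0055), and the abundant GSTU19 (AT1G78380) had 902 and 938 FPKM against 1161 and 1155 FPKM. UGT74E2 (AT1G05680), which glucosylates the auxin precursor indole butyric acid, had 26.3 and 28.7 FPKM against 43.5 and 42.6 FPKM (-0.63, adjusted p = 0.0093). Further lower members were UGT76B1 (AT3G11340, -0.57), UGT73C1 (AT2G36750, -0.50) and DOGT1 (AT2G36800, -0.48), which glucosylates deoxynivalenol and brassinosteroids. The 3 higher glutathione transferases were GSTU20 and GSTF9, both of the glucosinolate lists, and GSTF7 (AT1G02920, 0.32).

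The 21 lower transferase and efflux genes differed by -0.81 to -0.23 on the log2 scale with NaCl. Untreated, 20 of them were tested against both WT sets as 1 group, and their log2 fold changes ran from -0.38 to 0.80 with a median of -0.03 and none called (DTX1 had 4.75 and 5.12 FPKM under the AtC3H3 OX label, against 5.04 and 5.49 FPKM in set 1 and 6.30 and 4.49 FPKM in set 2 of WT). Against AtC3H26 OX with NaCl, 17 of the 21 were lower, 7 differences in either direction were called, and the median was -0.18. Set against the same WT libraries with NaCl, which both comparisons share, these genes differed by -0.62 to -0.06 under the AtC3H26 OX label, with a median of -0.28, where the median under the AtC3H3 OX label was -0.44. The calls of these families did not hold without a WT library: without WT replicate 1 or 2, none of the glutathione S-transferases, UDP-glycosyltransferases or ABCC genes was called.

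**Figure D4:**
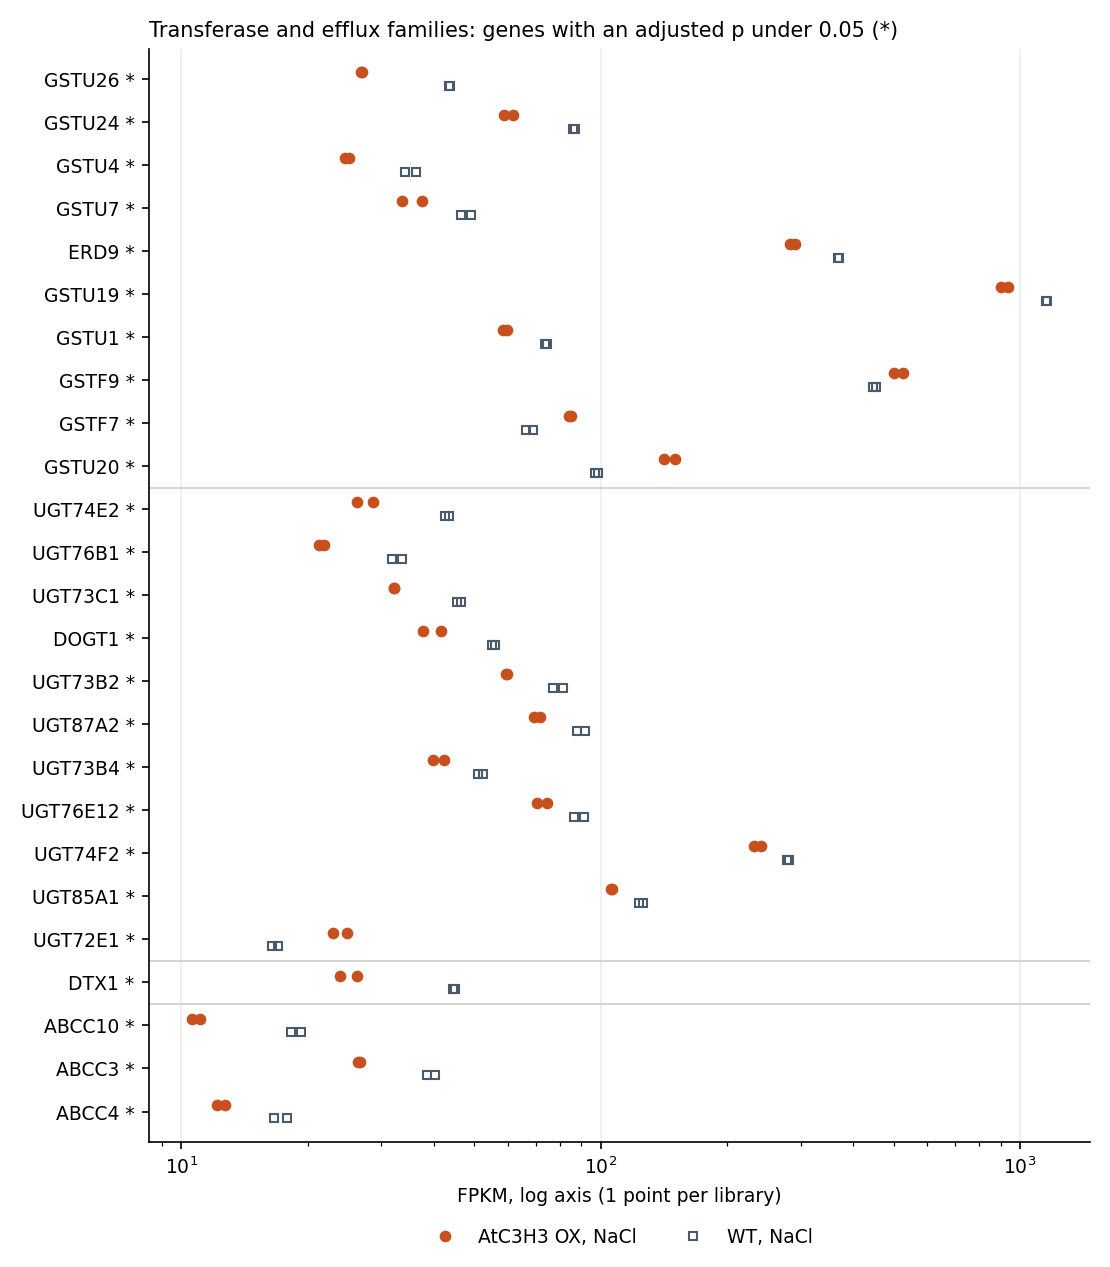
FPKM (log axis) of the called genes among all named glutathione S-transferases, UDP-glycosyltransferases, DTX carriers and ABCC transporters (separated by lines) in the 2 libraries labelled AtC3H3 OX (filled circles) and the 2 WT libraries (open squares) with NaCl. In 21 genes both circles lie left of both squares, and in GSTU20, GSTF7, GSTF9 and UGT72E1 they lie right of them.

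Beyond these groups, the 12 largest changes in each direction, among genes whose groups did not overlap, held genes of several kinds. The largest increase was that of the long noncoding RNA AT3G05145, with 29.0 and 18.7 FPKM under the AtC3H3 OX label and 9.86 and 6.77 FPKM in WT (log2 fold change 1.41, adjusted p = 0.043 from limma). The noncoding RNA AT5G03285 had 28.6 and 35.6 FPKM against 19.7 and 15.9 FPKM. M10 (AT2G41280), a late embryogenesis abundant protein gene, had 8.12 and 7.51 FPKM against 3.74 and 4.48 FPKM, and AT2G04790 and AT4G07820 had log2 fold changes of 0.88 and 0.89. M10 thus rose while LEA7 and another LEA gene, AT3G15670, with 21.5 and 18.0 FPKM under the AtC3H3 OX label and 36.0 and 36.6 FPKM in WT (-0.85), fell.

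The rule also took in 2 short RNAs, U5.1b and AT1G06397, which are listed at 0 in 11 and 7 of the 14 libraries and passed the filter through WT with NaCl alone. U5.1b stood at 203.8 and 0 FPKM in the untreated libraries labelled AtC3H26 OX, so that replicates of 1 group parted, and no decrease is read from either. Of the decreases in protein genes, AT1G09500, a relative of cinnamyl alcohol dehydrogenases, had 12.6 and 12.7 FPKM under the AtC3H3 OX label and 25.8 and 25.4 FPKM in WT (log2 fold change -0.96, adjusted p = 0.0048 from limma). The dehydrin gene AT4G38410 had 5.88 and 5.64 FPKM against 10.6 and 13.3 FPKM, and AT5G44575 had 4.36 and 4.02 FPKM against 8.45 and 8.71 FPKM. These genes lay low in both replicates of the line. AT4G22470 (listed as F7K2.50) had 14.2 and 16.7 FPKM under the AtC3H3 OX label, 42.2 and 41.3 FPKM in those labelled AtC3H26 OX and 30.6 and 30.5 FPKM in WT. Between the lines it differed by -1.38 (adjusted p = 0.0051), and the interaction of line and NaCl was called (-1.23, adjusted p = 0.049). Untreated, it had only 1.361 and 1.704 FPKM under the AtC3H3 OX label and 0.869 to 1.205 FPKM in WT. The antisense RNA AT4G03955 (-1.06) and AT2G00340 (-0.96), an RNA of no named class, complete the lower genes.

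**Figure D5:**
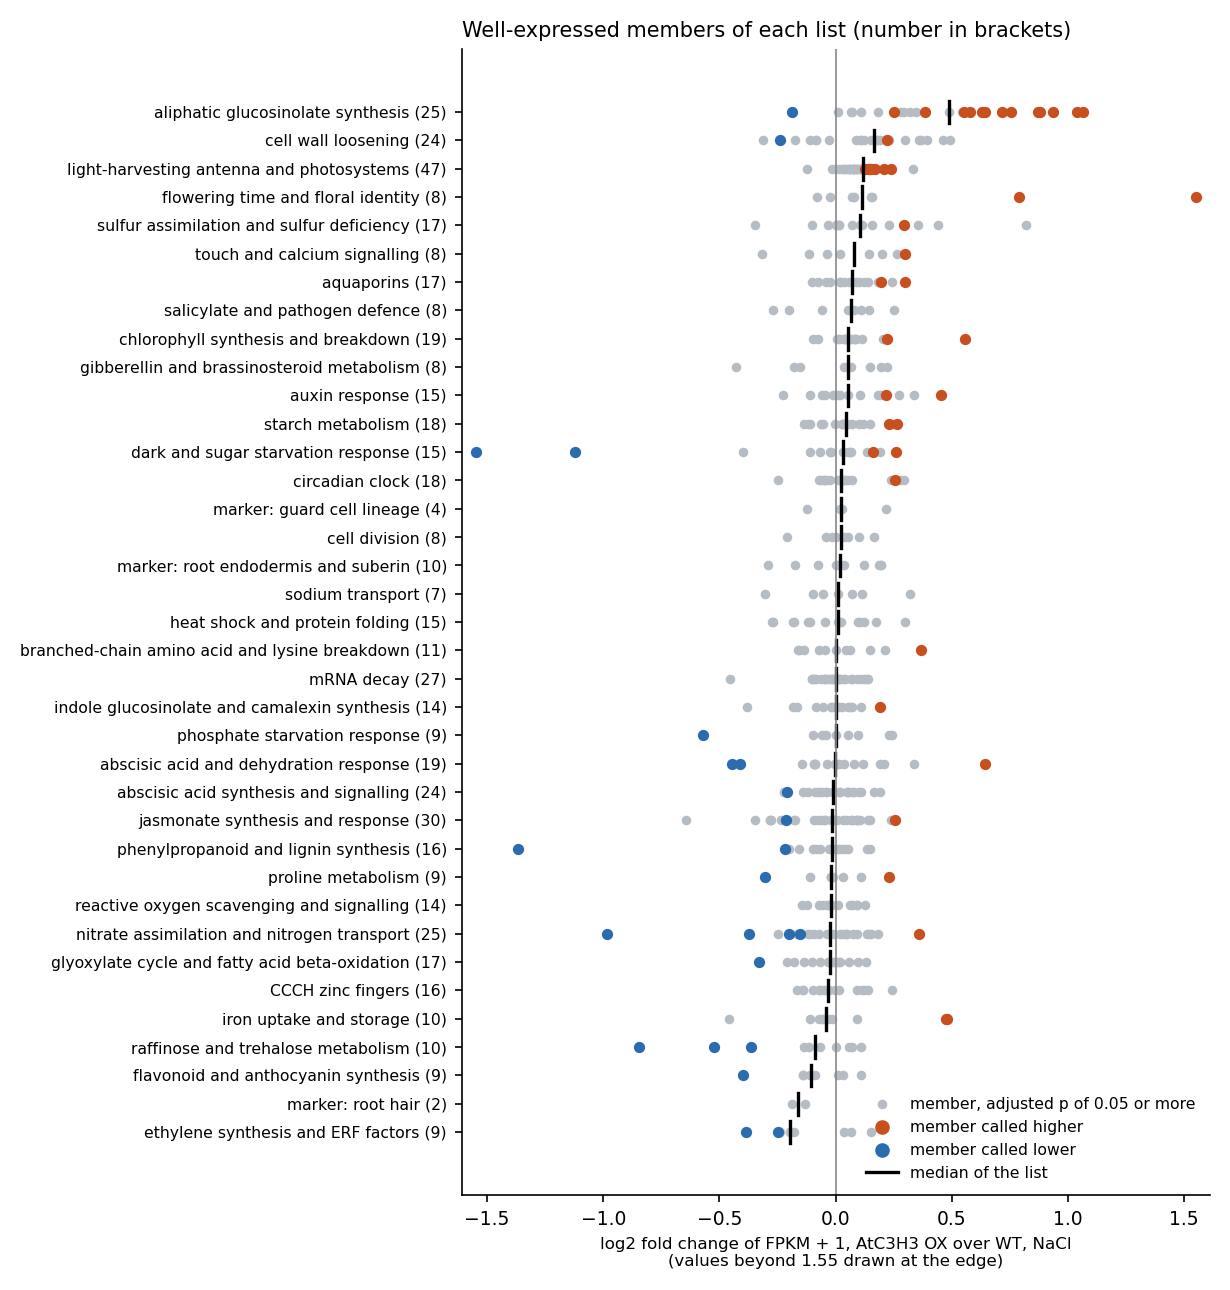
Log2 fold change of FPKM + 1 (AtC3H3 OX over WT, NaCl) of the well-expressed members of each list, with the number of members in brackets; colours mark members called higher or lower, black bars mark the list medians, and values past the axis (PI and DIN10) stand at its edge. Aliphatic glucosinolate synthesis has the highest median, 0.49, and most other medians lie near 0.

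The remaining lists held up to 4 called genes each. Starch breakdown held 2 higher genes, the glucan water dikinase SEX1 (AT1G10760, log2 fold change 0.23) and the phosphorylase PHS2 (AT3G46970, 0.27). Of 17 genes of the glyoxylate cycle and beta-oxidation, ACX1 (AT4G16760), an acyl-CoA oxidase, was lower, with 244 and 250 FPKM under the AtC3H3 OX label and 309 and 311 FPKM in WT. The dark and sugar starvation list held DIN10 and DIN11 of the study's list and 2 slightly higher genes, DYL1 (AT1G28330, 0.26) and DRM2 (AT2G33830, 0.16), and these were lower under the AtC3H26 OX label, with log2 differences of 0.62 and 0.56 between the lines. Chalcone synthase TT4 (AT5G13930), the entry to flavonoids, was lower at 49.9 and 51.3 FPKM against 66.3 and 67.8 FPKM in WT, as was the lignin enzyme CAD5 (AT4G34230, -0.22). Single higher genes were the clock output GRP7 (AT2G21660, 0.26) and the calmodulin-like TCH2 (AT5G37770, 0.30). Of 27 mRNA decay genes and 16 CCCH zinc finger genes none was called (limma), with 1 higher and 1 lower in each list at an unadjusted p under 0.05. AtC3H3, itself of the CCCH family and called lower, is not among these 16. Heat shock genes held no call among 15, with 2 higher and 2 lower at that unadjusted threshold.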

How the data were processed

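Reads were trimmed and mapped by the authors with TopHat (TAIR10), and Cufflinks gave the deposited FPKM of each gene (versions not given in the sources used here), with no counts. Names were matched to RefSeq symbols and synonyms of TAIR10.1 (37325 of 37980 genes), and repeated names were not used (28 of 771 list members). limma 3.58.1 with an intensity trend (R 4.3.3) was run separately on the libraries of each comparison, after a filter of 1 FPKM in 2 or more of them, on the log2(FPKM + 1) scale. On this scale changes of low genes are understated. P-values were adjusted over all genes tested by the Benjamini-Hochberg method, and called means an adjusted p under 0.05. They measure the spread between 2 biological replicates per group. With both WT sets as 1 group, they also take in the difference between the sets. Well-expressed genes had a mean of at least 5 FPKM. The members and lists were chosen with earlier results of these data known. Named genes are AtC3H3, the called members of each list (up to 6 with the largest change), the 2 most abundant members of each list, and the 12 largest changes in each direction without overlap between groups beyond the 21 listed genes. Other genes named, and the 6 families taken whole, were chosen after their values were seen. Pairing by replicate number was checked by the correlation of replicate differences (0.174 over well-expressed genes, from 2 pairs) and not used. Alternatives were a pseudocount of 0.1, no filter, quantile normalization, median scaling, all 14 libraries in one fit, no trend, a replicate block, leaving out each library and a mean of at least 20 FPKM. Tables and figures used Python 3.11.15, pandas 2.3.3, numpy 2.4.6 and matplotlib 3.10.9. No sequences are shown, since no genome was used.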

Additional observations from a re-analysis of the deposited data

Results flagged for a closer look

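The difference of the line between NaCl and untreated seedlings was called by the interaction test of limma in 5 of the genes described. Over all genes tested, 8 interactions were positive and 8 negative. AT4G22470 had an interaction of -1.23 on the log2 scale (adjusted p = 0.049). DIN11 had -1.68 (adjusted p = 0.024), with 5.02 and 4.69 FPKM under the AtC3H3 OX label and 11.7 and 11.8 FPKM in WT with NaCl, and a log2 fold change of 0.55 untreated. ELI3-2 had -1.52 (adjusted p = 0.016) and was below 1 FPKM in every untreated library of these groups. UGT72E1, a UDP-glycosyltransferase gene, had 0.65 (adjusted p = 0.033), with 23.0 and 24.9 FPKM under the AtC3H3 OX label and 16.4 and 17.0 FPKM in WT with NaCl, and 34.4 and 35.1 FPKM, against 38.2 to 39.99 FPKM in WT, untreated. U5.1b had a fitted value of -7.14, but it is listed at 0 in 11 of the 14 libraries and differs between replicates of another group (203.8 and 0 FPKM), so that no effect of the line is read from it.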

How the results depend on the processing

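All 492 well-expressed calls kept their sign under every alternative except quantile normalization, where 489 did. Apart from quantile normalization and median scaling this was fixed in advance, since no called gene overlapped between the groups. The number of calls moved. Over all genes tested, 255 higher and 270 lower genes became 24 and 32 without the filter on low values and 4 and 4 without the intensity trend. Leaving out 1 library gave 13 to 119 higher and 8 to 172 lower genes. Among well-expressed genes, 242 and 250 became 21 and 29 without the filter, 2 and 3 without the trend, and 13 to 105 and 7 to 154 without 1 library. The filter sets the genes on which the spread is estimated and the number tested. For the other changes the cause was not tested. The samples of the 2 groups share only a replicate number. With the replicate block, 268 genes were higher and 275 lower, and the calls between the lines fell to 366 higher and 141 lower genes, against 753 and 340. Untreated, 4 higher and 5 lower genes became 170 and 314 against WT set 1 alone, 1671 and 1160 against WT set 2 alone, 2 higher with a pseudocount of 0.1, 3 lower with quantile normalization and 2 lower with the replicate block. The interaction, with 8 positive and 8 negative genes, had 398 and 173 against WT set 1 alone and 957 and 1343 against WT set 2 alone. The 13 higher aliphatic glucosinolate genes stayed at 13 with a pseudocount of 0.1, quantile normalization, median scaling and the replicate block. They were 15 with all libraries in one fit, 7 without the filter, 0 without the trend, and 5 to 10 without 1 library.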
